A study of Danio rerio with 15 samples.

Results

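The genes described here encode the membrane carriers that move amino acids, and related small molecules, across cell membranes. They are the rows of the 3 deposited pairwise tables whose symbol begins with slc1a, slc3a, slc6a, slc7a, slc36a, slc38a or slc43a, which gave 67 genes of 23926 in the tables. The rule used the symbol alone and no measured value, though it was set with earlier results of these data known. By its symbol slc7a6os is counted among them, although it is named for lying opposite slc7a6 and is not itself a transporter. Several slc6a members are known for carrying neurotransmitters, taurine or creatine in place of protein-building amino acids. A further 10 rows of the same families carry their symbol only in the reference list of names; they were kept apart and are given near the end.

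The series measured RNA along the length of the caudal fin of zebrafish of the wild-type strain AB, with libraries from the distal, the middle and the proximal region and 5 from each. Every library came from a pool of 4 fish, 2 males and 2 females, so a value is an average over 4 animals. All fish were wild type and the labels name no treatment; neither the age of the fish nor how regions were matched between pools is stated there. The study's title frames the question as positional memory, the property by which a fin regrows the structures that lie distal to a cut.

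Amino acid carriers work in several ways that shape how their genes are read. The slc3a proteins are heavy chains that carry no substrate themselves and bring a light chain of the slc7a family to the cell surface, where the pair exchanges amino acids. Other carriers work without a heavy chain: the cationic slc7a members take up arginine and lysine, and slc1a members take up glutamate or exchange neutral amino acids. The slc6a and slc38a members use the sodium gradient, some slc36a members use protons, and slc43a members let large neutral amino acids pass.

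Levels are normalized counts, that is, reads assigned to a gene divided by a size factor of the library. They are not corrected for gene length, so levels of different genes are not compared. The deposited tables give the mean of 5 libraries; the reads of each library were recovered from the printed digits of those means, for all 67 genes. Libraries are listed in a fixed order within a position, and that order is no match to the numbering in the labels. The recovered genes held 9956939 to 14194085 reads per library, of which the 67 genes took 0.310% to 0.368%. Distal libraries held 9956939 to 12640780 reads, middle ones 12673442 to 14194085 and proximal ones 12018533 to 12693781. The median share of the 67 genes was 0.321% in distal, 0.340% in middle and 0.355% in proximal libraries. Values are mean ± SD (n = 5 libraries), and the differences called are those with an adjusted p under 0.05 in the authors' deposited tables (DESeq, Benjamini-Hochberg over each table). Log2 fold changes with standard errors come from limma, fitted on all 15 libraries for the 54 of the 67 genes that reached 10 reads in no fewer than 5 libraries. The tissue is a mixture, and in such samples fewer cells of a type and less RNA per cell cannot be told apart.

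In distal against proximal fin, 16 of the 67 genes were higher and 15 lower by the authors' deposited table, where 36.0% of the 23404 genes passed the same threshold, 17.9% higher and 18.1% lower. The median log2 fold change of the 67 genes was 0.01, beside −0.04 for all genes. In middle against proximal fin 5 were higher and 4 lower of 67, beside 7.31% of 23556 genes called (3.51% higher and 3.80% lower), with medians of 0.03 and −0.01. In distal against middle fin 9 were higher and 14 lower of 66, beside 26.2% of 23232 genes called (13.3% higher and 12.9% lower), with medians of −0.10 and −0.02. In limma the counts were 19 higher and 15 lower of 54 in distal against proximal fin, beside 51.5% of 18838 genes (25.8% higher and 25.7% lower). They were 6 higher and 4 lower in middle against proximal fin, beside 13.8% (6.90% and 6.93%), and 11 higher and 16 lower in distal against middle fin, beside 38.7% (20.4% and 18.3%). Of the 67 genes, limma alone called 4 in distal against proximal, 1 in middle against proximal and 5 in distal against middle fin. The 3 comparisons share their libraries in pairs, so they are not independent of each other. In all, 35 of the 67 genes were called in at least 1 comparison. The other 32 were called in none, and 11 of those 32 lay under the read minimum. The share of all genes called in at least 1 comparison was not counted, so the 35 have no such share beside them. Among called genes with a mean of at least 20, the largest distal against proximal falls were in the noradrenaline carrier slc6a2 and the cationic carriers slc7a1 and slc7a2, and the largest rise was in slc6a15; slc1a1, which had fewer reads, differed by more.

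**Figure D1:**
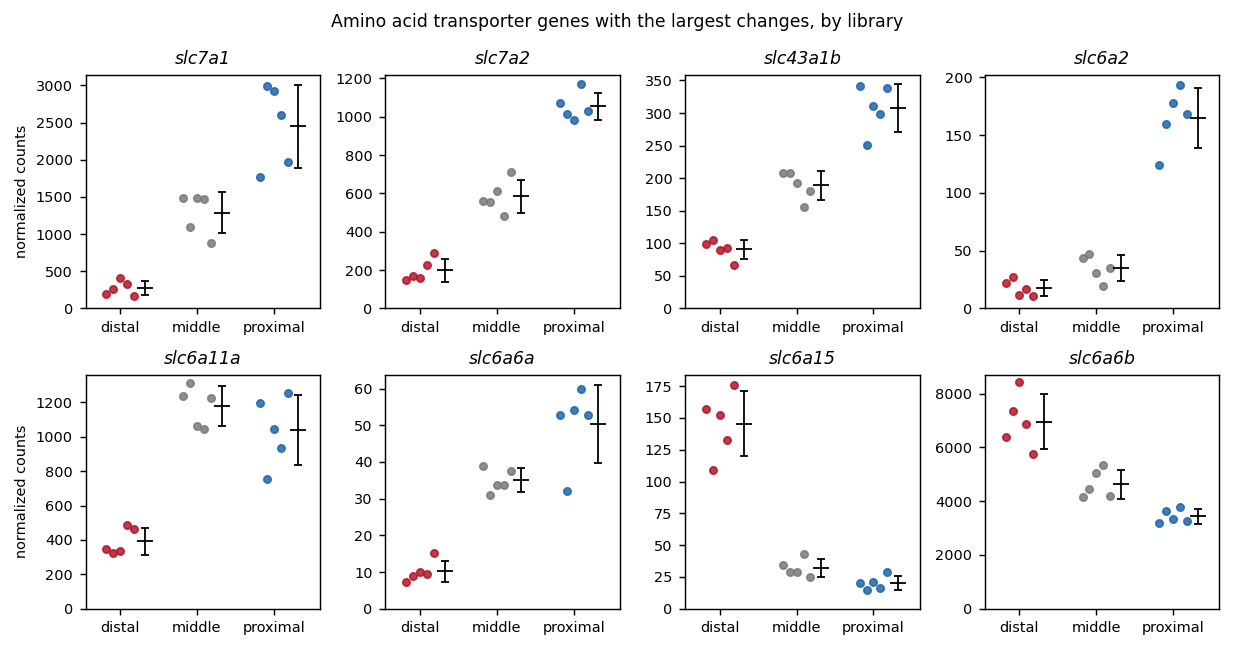
Normalized counts per library of 8 of the named genes with large distal against proximal changes, each panel with its own linear axis from 0. Points are the 5 libraries of the distal, middle and proximal fin and bars the mean ± SD; slc7a1 and slc7a2 step down toward the tip with no overlap between positions, and slc6a6b steps up.

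Cationic carriers import arginine, lysine and ornithine, arginine being the substrate of nitric oxide synthases and arginases. Of 6 measured, grouped as cationic by family number alone, 3 were lower and none higher in distal against proximal fin, beside 36.0% of all genes called. In middle against proximal fin 2 were lower, beside 7.31%, and in distal against middle fin 4 were lower, beside 26.2%. The same shares stand beside the counts of every role below, and no role was tested against them. slc7a1 (ENSDARG00000016439), a widely expressed arginine carrier in mammals and named slc7a1a in the reference list of names, had 199, 265, 404, 329.6 and 174 normalized counts in the 5 distal libraries. Middle slc7a1 levels were 1489, 1099.9, 1484, 1466 and 887, and proximal ones 1762, 2987, 2921, 2602 and 1976. No library of a position overlapped any library of another position, and the level was highest in the proximal and lowest in the distal fin. The distal mean was 8.93-fold lower than the proximal mean (adjusted p = 1.3e-25 in the authors' deposited table), with a limma log2 fold change of −3.20 ± 0.22 (SE).

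slc7a2 (ENSDARG00000037097), an inducible cationic carrier in mammals, had 149.6, 171, 159, 225 and 289 normalized counts in the 5 distal libraries. Middle slc7a2 levels were 558, 555, 613, 485 and 710.4, and proximal ones 1070.3, 1016, 984, 1169 and 1031. The positions again held separate ranges, in the same order. The mean of its distal libraries was 5.30-fold lower than the proximal and 2.94-fold lower than the middle mean, and its middle mean was 1.80-fold lower than the proximal (adjusted p = 2.47e-78, 4.99e-17 and 1.43e-11 in the authors' deposited tables). For slc7a1 the same steps were 4.69-fold lower for distal against middle and 1.91-fold lower for middle against proximal (adjusted p = 1.15e-16 and 0.000578 in the authors' deposited tables).

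slc7a3a (ENSDARG00000020645), a further arginine carrier and among the 3 genes with the most normalized counts of the set, averaged 3945 ± 834 normalized counts in the distal, 5250.4 ± 749.5 in the middle and 5091 ± 616 in the proximal fin. It was 1.29-fold lower in distal against proximal and 1.33-fold lower in distal against middle fin (adjusted p = 0.0436 and 0.0380 in the authors' deposited tables), and its distal and proximal libraries overlapped. Its middle against proximal ratio of 1.03 was not called. slc7a14a (ENSDARG00000010816), whose mammalian counterpart is a lysosomal protein of this subfamily, was low, with 8.56 ± 3.65 normalized counts in the distal, 23.2 ± 3.54 in the middle and 16.02 ± 7.75 in the proximal fin, and was called lower in distal against middle fin (2.71-fold lower; adjusted p = 0.000609 in the authors' deposited table). It was among the genes chosen after their values were seen. slc7a4, with 12.5 ± 4.03 normalized counts in the distal, 20.9 ± 5.65 in the middle and 19.7 ± 7.44 in the proximal fin, and slc7a14b, under the read minimum, were not called.

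Heteromeric carriers need a heavy chain to reach the surface. By the authors' DESeq test, 0 of the 3 heavy chains were called in any comparison; 0 had an unadjusted p under 0.05, and limma called 0. slc3a2b (ENSDARG00000037012), which in mammals as slc3a2 is the partner of most light chains and also a cofactor of integrins, averaged 2675 ± 343 normalized counts in the distal, 2989.9 ± 578 in the middle and 2935 ± 373 in the proximal fin. Its limma log2 fold change was −0.13 ± 0.13 (SE) in distal against proximal fin (adjusted p = 0.426). Without middle library 4, its lowest, limma called it lower in distal against middle fin (log2 fold change −0.28, adjusted p = 0.0375). slc3a2a (ENSDARG00000036427) averaged 91.0 ± 13.7 normalized counts in the distal, 100.03 ± 19.9 in the middle and 89.6 ± 25.7 in the proximal fin, with a log2 fold change of 0.05 ± 0.19 (SE) in distal against proximal fin (limma adjusted p = 0.837). slc3a1 (ENSDARG00000017165), the partner of slc7a9 in mammalian kidney, averaged 13.2 ± 4.23 normalized counts in the distal, 16.8 ± 4.30 in the middle and 17.8 ± 6.96 in the proximal fin, and slc7a9 itself held 1.74 ± 1.67 normalized counts in the distal, 3.70 ± 2.53 in the middle and 5.54 ± 4.24 in the proximal fin and lay under the read minimum.

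Among the 6 light chains of the set, 2 were higher and none lower in distal against proximal fin. The light chains slc7a8b and slc7a11, which only the reference list names, were lower there and are given near the end. slc7a6 (ENSDARG00000054423), which exchanges cationic for neutral amino acids, had 103, 78.5, 54.9, 71.5 and 85.1 normalized counts in the 5 distal libraries. Middle slc7a6 levels were 46.8, 45.6, 50.05, 36.5 and 48.8, and proximal ones 48.9, 44.7, 34.8, 46.7 and 56.6. Every distal library was above every middle library, while the lowest distal library lay within the proximal range. By the means, distal fin was 1.69-fold higher than the proximal and 1.72-fold higher than the middle mean (adjusted p = 0.000993 and 0.000600 in the authors' deposited tables). slc7a10a (ENSDARG00000008100), a carrier of small neutral amino acids, had 282, 288, 328, 260.3 and 307 normalized counts in the 5 distal libraries. Middle slc7a10a levels were 205, 207, 239.7, 314 and 282, and proximal ones 243, 209.8, 198, 189 and 159.7. Its distal range lay above its proximal range, and the distal mean was 1.47-fold higher (adjusted p = 0.000182 in the authors' deposited table); neither step alone was called.

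slc7a7 (ENSDARG00000055226), which exports cationic amino acids in exchange for neutral ones with sodium, was the only one of the 67 genes called higher at the first step and lower at the next. It had 141, 122, 138, 166 and 108 normalized counts in the 5 distal libraries. Middle slc7a7 levels were 201, 209, 153, 140.4 and 176, and proximal ones 139.8, 129, 128, 129 and 122. The middle libraries lay above all proximal ones and overlapped the distal ones. The middle mean was 1.36-fold higher than the proximal and the distal mean 1.301-fold lower than the middle (adjusted p = 0.0331 and 0.0416 in the authors' deposited tables). Both calls were near the threshold: without single libraries the limma adjusted p passed 0.05 for the first in 6 cases, at up to 0.0698 without middle library 2, and for the next in 4 cases, at up to 0.0759 without distal library 5. slc7a5 (ENSDARG00000099265), the leucine carrier that is prominent in growing mammalian cells, averaged 274 ± 58.5 normalized counts in the distal, 277 ± 84.6 in the middle and 310.2 ± 104 in the proximal fin and slc7a8a (ENSDARG00000075831) averaged 299.7 ± 26.0 normalized counts in the distal, 359 ± 60.6 in the middle and 324 ± 37.7 in the proximal fin; neither was called in any comparison. The limma log2 fold change of slc7a5 in distal against proximal fin was −0.13 ± 0.23 (SE; adjusted p = 0.645).

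**Figure D2:**
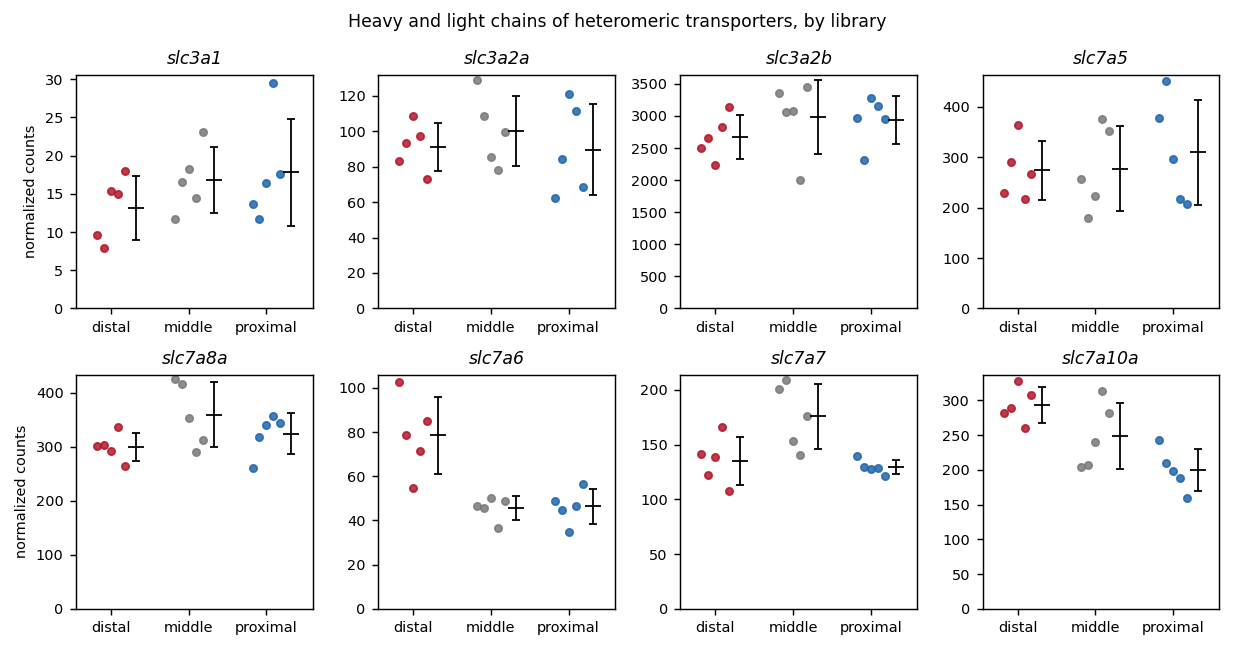
Normalized counts per library of the heavy chains slc3a1, slc3a2a and slc3a2b and of 5 light chains in the distal, middle and proximal fin, on linear axes from 0, with mean ± SD. The heavy chains overlap at all positions, the means of slc7a6 and slc7a10a are highest distally and that of slc7a7 is highest in the middle fin.

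Glutamate and aspartate carriers clear these amino acids from around cells, and slc1a1 also carries cysteine in mammals. Of 8 measured, 1 was higher and 2 lower in distal against proximal fin, none was called in middle against proximal fin (DESeq; 0 at an unadjusted p under 0.05, and 0 in limma) and 2 were lower in distal against middle fin; 4 of the 8 lay under the read minimum. slc1a1 (ENSDARG00000020212) had 1.21, 0, 0, 0 and 0 normalized counts in the 5 distal libraries. Middle slc1a1 levels were 8.77, 6.80, 16.4, 8.66 and 8.56, and proximal ones 7.82, 16.5, 9.67, 17.1 and 34.4. It was detected in every middle and proximal library and in 1 distal library. Those values rest on 1 distal read, 52 middle and 90 proximal reads; the distal level was 70.9-fold lower than the proximal (exact 95% interval 13.9 to 3170.1) and 40.7-fold lower than the middle level (7.76 to 1818), intervals that cover counting error only. The authors' deposited tables gave adjusted p = 6.14e-06 and 4.36e-07. It was among the genes chosen after their values were seen.

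slc1a3a (ENSDARG00000104431), a counterpart of a glial glutamate carrier of mammals, averaged 239 ± 5.87 normalized counts in the distal, 324 ± 28.9 in the middle and 303 ± 30.3 in the proximal fin. Its distal libraries lay below all libraries of the other positions, 1.27-fold lower than proximal and 1.36-fold lower than middle by the means (adjusted p = 0.0292 and 0.00311 in the authors' deposited tables). slc1a7a (ENSDARG00000034940), chosen after its values were seen, averaged 13.1 ± 1.97 normalized counts in the distal, 7.92 ± 2.16 in the middle and 5.13 ± 4.19 in the proximal fin and was the higher call, at 2.55-fold higher (adjusted p = 0.0157 in the authors' deposited table), with overlapping libraries. Of the 2 exchangers of alanine, serine and cysteine, slc1a5 (ENSDARG00000099186), which exchanges glutamine in mammals, averaged 2923 ± 269 normalized counts in the distal, 2236 ± 232 in the middle and 2364 ± 251 in the proximal fin. It was 1.24-fold higher in distal against proximal and 1.31-fold higher in distal against middle fin (adjusted p = 0.0108 and 0.00159 in the authors' deposited tables). The level of slc1a4 was 11.4 ± 4.39 normalized counts in the distal, 10.6 ± 5.54 in the middle and 5.78 ± 4.29 in the proximal fin and was not called, while limma alone called it higher in distal against proximal fin (log2 fold change 1.12 ± 0.44 (SE), adjusted p = 0.0384).

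The slc6a carriers of taurine, GABA and creatine held both the gene with the most normalized counts of the set and 2 of its 8 largest falls. Taurine is not built into protein and is known as an osmolyte, and its carrier is slc6a6. slc6a6b (ENSDARG00000098438) had 6382, 7357, 8434, 6856 and 5770.4 normalized counts in the 5 distal libraries. Middle slc6a6b levels were 4152, 4436, 5044, 5332 and 4179.5, and proximal ones 3174, 3620.3, 3326, 3797 and 3249. Its 3 ranges did not overlap, and the level was highest distally. The distal mean was 2.03-fold higher than the proximal and 1.504-fold higher than the middle mean, and the middle mean 1.35-fold higher than the proximal (adjusted p = 2.07e-13, 6.79e-05 and 0.00121 in the authors' deposited tables).

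slc6a6a (ENSDARG00000012534), the other copy, ran the opposite way. It had 7.24, 8.98, 9.88, 9.60 and 15.1 normalized counts in the 5 distal libraries. Middle slc6a6a levels were 39.0, 31.1, 33.7, 33.7 and 37.7, and proximal ones 52.8, 32.1, 54.2, 60.0 and 52.9. All distal libraries lay below all others. Distal fin was 4.96-fold lower than the proximal and 3.44-fold lower than the middle mean (adjusted p = 1.16e-13 and 2.34e-07 in the authors' deposited tables). slc6a11a (ENSDARG00000074002), a GABA carrier, had 349.9, 326, 334, 486 and 465 normalized counts in the 5 distal libraries. Middle slc6a11a levels were 1238, 1311, 1061, 1047 and 1225, and proximal ones 1199, 756, 1046, 934 and 1257. The middle and proximal libraries overlapped and all distal ones lay below them; the distal mean was 2.65-fold lower than the proximal and 3.00-fold lower than the middle mean (adjusted p = 7.62e-11 and 9.07e-38 in the authors' deposited tables). The creatine carrier slc6a8 averaged 146 ± 34.1 normalized counts in the distal, 124 ± 23.5 in the middle and 143 ± 36.6 in the proximal fin and was not called. Nor were slc6a1a, slc6a1b, slc6a13 and slc6a13l. A separate row that only the reference list names SLC6A13 was lower in distal against proximal fin and is given near the end.

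The monoamine carriers return noradrenaline or serotonin to nerve endings. slc6a2 (ENSDARG00000016141), the noradrenaline carrier, had 21.7, 26.9, 12.1, 17.1 and 10.4 normalized counts in the 5 distal libraries. Middle slc6a2 levels were 43.8, 47.6, 30.8, 19.2 and 35.1, and proximal ones 124, 159, 178, 193 and 168. Proximal libraries lay above all middle and distal ones, which overlapped each other. The distal mean was 9.33-fold lower and the middle mean 4.66-fold lower than the proximal mean (adjusted p = 6.13e-45 and 1.71e-26 in the authors' deposited tables), and the distal mean was 2.00-fold lower than the middle (adjusted p = 0.00998 in the authors' deposited table). Without distal library 5 the limma adjusted p of that last step was 0.0573, at a log2 fold change of −0.84. Of 6 neuron markers 1 was higher, syt1a, and 1 lower, snap25a, in distal against proximal fin. Their summed level ranged 347 to 459.7 distally, 354 to 498 in the middle and 279.5 to 373 proximally. The neuron sum is set by syt1a (229 ± 35.5 in distal, 285 ± 48.7 in middle and 163 ± 32.3 in proximal fin) and tubb5. The level of tubb5 was 176 ± 15.0 in distal, 135 ± 12.9 in middle and 160 ± 23.0 in proximal fin, and the other neuron markers were low. Of 6 markers of Schwann cells, which ensheathe nerves, 4 were lower and 1 higher, with summed levels of 2625 to 3135 in distal, 2738 to 3400.4 in middle and 3308 to 4044 in proximal libraries. That sum is set by erbb3b (2238 ± 254 in distal, 2218 ± 234 in middle and 2379 ± 264 in proximal fin), which was not called. The myelin genes mbpa and plp1b were lower: mbpa averaged 84.6 ± 14.2 in distal, 299.6 ± 20.3 in middle and 472 ± 28.1 in proximal fin, and plp1b 28.2 ± 7.37, 121 ± 9.06 and 180.4 ± 24.3 in distal, middle and proximal fin (adjusted p = 4.38e-65 and 2.11e-44 for distal against proximal fin by the authors' deposited table). The higher Schwann cell marker was sox10, at 314 ± 22.8 in distal, 233 ± 15.3 in middle and 199 ± 27.7 in proximal fin. Its distal against proximal call had an adjusted p of 5.67e-06 in the authors' deposited table. The part of the neuron and Schwann cell markers in the result was not tested.

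slc6a4a (ENSDARG00000061165), a serotonin carrier, averaged 336 ± 39.5 normalized counts in the distal, 316 ± 11.7 in the middle and 248 ± 36.4 in the proximal fin. It was 1.36-fold higher in distal against proximal fin (adjusted p = 0.00337 in the authors' deposited table), with overlapping ranges. In middle against proximal fin limma alone called it higher, and kept that call in 13 of the 15 fits that left out a library.

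Of the glycine carriers, slc6a9 (ENSDARG00000018534) averaged 710.1 ± 81.3 normalized counts in the distal, 687 ± 85.8 in the middle and 449 ± 57.4 in the proximal fin. All distal and all middle libraries lay above all proximal ones. It was 1.58-fold higher in distal and 1.53-fold higher in middle against proximal fin (adjusted p = 2.12e-07 and 1.6e-05 in the authors' deposited tables), and distal against middle was not called. slc6a5, at 5.63 ± 1.37 normalized counts in the distal, 9.80 ± 3.57 in the middle and 9.21 ± 1.13 in the proximal fin, was not called.

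The 9 slc6a carriers of neutral amino acids and their relatives split, with 2 higher and 3 lower in distal against proximal fin. slc6a15 (ENSDARG00000062821), which in mammals carries branched-chain amino acids and proline, had 157, 109, 153, 132 and 176 normalized counts in the 5 distal libraries. Middle slc6a15 levels were 34.1, 29.1, 28.9, 43.3 and 24.8, and proximal ones 20.5, 14.6, 21.3, 16.2 and 28.8. Every distal library was above every other library, while middle and proximal libraries overlapped. Its distal mean was 7.17-fold higher than the proximal and 4.53-fold higher than the middle mean (adjusted p = 7.78e-33 and 9.81e-24 in the authors' deposited tables). slc6a17 (ENSDARG00000068787), a close relative found on synaptic vesicles in mammals, averaged 101 ± 11.9 normalized counts in the distal, 88.0 ± 6.10 in the middle and 51.5 ± 8.06 in the proximal fin. It was 1.97-fold higher in distal and 1.71-fold higher in middle against proximal fin (adjusted p = 1.95e-06 and 0.000931 in the authors' deposited tables).

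slc6a16b (ENSDARG00000102377), of unknown substrate, averaged 886 ± 152 normalized counts in the distal, 1189 ± 230.0 in the middle and 1154 ± 123 in the proximal fin and was 1.303-fold lower in distal against proximal fin (adjusted p = 0.0126 in the authors' deposited table), a call that limma did not keep without distal library 1 or distal library 2 (adjusted p = 0.0517 and 0.0539). slc6a14 (ENSDARG00000029866), chosen after its values were seen and known for carrying nearly all neutral and cationic amino acids in mammals, averaged 11.6 ± 5.76 normalized counts in the distal, 25.3 ± 2.72 in the middle and 26.8 ± 7.97 in the proximal fin and was 2.31-fold lower in distal against proximal fin (adjusted p = 0.00190 in the authors' deposited table). The others, slc6a16a, slc6a18, slc6a19a.1 and slc6a19b, were not called.

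slc6a19a.2 (ENSDARG00000091560), also chosen after its values were seen, had 0 distal, 12 middle and 15 proximal reads over 5 libraries each. The exact 95% interval of the fall in distal against proximal fin starts at 3.16-fold, for counting error only. Its near namesake slc6a19a.1 held 3 distal and 10 proximal reads, and how the authors' counting split reads between such similar copies is unknown.

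Some slc36a carriers release amino acids from lysosomes or endosomes or take them up with protons. Both measured slc36a genes, grouped as proton-coupled by family name alone, were higher distally. slc36a4 (ENSDARG00000039661) had 566, 659.7, 737, 691 and 524 normalized counts in the 5 distal libraries. Middle slc36a4 levels were 481, 423, 465, 572 and 443, and proximal ones 363, 488, 412, 434 and 397. Its distal range lay above the proximal range; the distal mean was 1.52-fold higher than the proximal and 1.33-fold higher than the middle mean (adjusted p = 8.02e-06 and 0.00572 in the authors' deposited tables). slc36a1 (ENSDARG00000075618), chosen after its values were seen, averaged 241 ± 18.6 normalized counts in the distal, 193 ± 13.6 in the middle and 185 ± 17.6 in the proximal fin. It was 1.302-fold higher in distal against proximal fin (adjusted p = 0.0217 in the authors' deposited table). In distal against middle fin limma alone called it higher (log2 fold change 0.32 ± 0.09 (SE), adjusted p = 0.00711).

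The sodium-coupled neutral carriers, which take up glutamine, alanine and asparagine, numbered 11, of which 3 were higher and 3 lower in distal against proximal fin, none was called in middle against proximal fin (DESeq; 1 at an unadjusted p under 0.05, and 0 in limma), and 2 were higher and 2 lower in distal against middle fin. slc38a4 (ENSDARG00000018149) had 3029.7, 2934, 2628, 3396 and 2552 normalized counts in the 5 distal libraries. Middle slc38a4 levels were 4864, 4774, 4829, 3693 and 4213, and proximal ones 3830.4, 3691, 4513, 4365 and 5535. All distal libraries lay below all others. The distal mean was 1.51-fold lower than the proximal and 1.54-fold lower than the middle mean (adjusted p = 0.000169 and 9.57e-08 in the authors' deposited tables). slc38a3a (ENSDARG00000027065), a glutamine carrier, averaged 132 ± 23.4 normalized counts in the distal, 170.0 ± 24.8 in the middle and 192 ± 24.6 in the proximal fin and was 1.46-fold lower in distal against proximal fin (adjusted p = 0.00148 in the authors' deposited table).

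The copies of slc38a5, also glutamine carriers, were chosen after their values were seen. slc38a5a (ENSDARG00000009901) averaged 1896 ± 327 normalized counts in the distal, 1591 ± 191 in the middle and 1324 ± 71.1 in the proximal fin and was 1.43-fold higher in distal against proximal fin, whereas slc38a5b (ENSDARG00000014587) averaged 3108 ± 105 normalized counts in the distal, 3901 ± 124 in the middle and 3933 ± 235 in the proximal fin and was 1.27-fold lower (adjusted p = 0.000579 and 0.00525 by the authors' deposited table). slc38a10 (ENSDARG00000077081) averaged 969.9 ± 26.0 normalized counts in the distal, 792 ± 23.9 in the middle and 789 ± 38.2 in the proximal fin and was 1.23-fold higher in distal against proximal fin (adjusted p = 0.0264 in the authors' deposited table). slc38a9 (ENSDARG00000032769), a lysosomal arginine sensor of mTORC1 in mammals, averaged 554 ± 47.7 normalized counts in the distal, 423 ± 49.4 in the middle and 455 ± 69.6 in the proximal fin and was 1.31-fold higher in distal against middle fin (adjusted p = 0.00598 in the authors' deposited table). slc38a11, chosen after its values were seen, averaged 10.9 ± 4.07 normalized counts in the distal, 7.56 ± 2.40 in the middle and 4.41 ± 0.512 in the proximal fin and was 2.46-fold higher in distal against proximal fin (adjusted p = 0.0331 in the authors' deposited table). slc38a2 (ENSDARG00000045886), which amino acid starvation induces in mammalian cells, averaged 2146 ± 299.9 normalized counts in the distal, 2302 ± 403 in the middle and 1929 ± 287 in the proximal fin and was not called; nor were slc38a3b, slc38a6 and slc38a7.

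Of the 6 slc43a carriers, 2 were higher and 1 lower in distal against proximal fin. slc43a1b (ENSDARG00000037748), a carrier of large neutral amino acids, had 98.9, 105, 90.0, 92.8 and 66.2 normalized counts in the 5 distal libraries. Middle slc43a1b levels were 208, 208, 192, 156 and 181, and proximal ones 342, 251, 311, 299 and 338. No position overlapped another. By the means, distal fin was 3.399-fold lower than the proximal and 2.08-fold lower than the middle mean, and the middle mean 1.63-fold lower than the proximal (adjusted p = 7.09e-32, 2.82e-11 and 4.62e-06 in the authors' deposited tables). slc43a3b (ENSDARG00000057949), whose mammalian counterpart carries purine bases, had 252.2, 215, 226, 195 and 241 normalized counts in the 5 distal libraries. Middle slc43a3b levels were 134, 132, 116, 112 and 144, and proximal ones 135, 118, 89.0, 117 and 146. All distal libraries lay above all others, by the means 1.87-fold higher than proximal and 1.77-fold higher than middle (adjusted p = 8.41e-09 and 1.59e-07 in the authors' deposited tables).

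slc43a2b (ENSDARG00000061120) averaged 71.1 ± 13.4 normalized counts in the distal, 75.9 ± 17.3 in the middle and 47.6 ± 5.44 in the proximal fin and was 1.49-fold higher in distal and 1.60-fold higher in middle against proximal fin (adjusted p = 0.0126 and 0.00893 in the authors' deposited tables). The middle call was lost by limma without middle library 1 and without proximal library 3 (adjusted p = 0.0517 and 0.0587). slc43a1a and slc43a2a (ENSDARG00000036848) were not called, with slc43a2a averaging 3034 ± 261 normalized counts in the distal, 3242 ± 652 in the middle and 2745 ± 597 in the proximal fin. slc43a3a, chosen after its values were seen, held 7.30 ± 5.05 normalized counts in the distal, 0.972 ± 1.37 in the middle and 4.59 ± 2.04 in the proximal fin, was called higher in distal against middle fin and lay under the read minimum.

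slc7a6os, which is neither a carrier nor a chain of one, averaged 157 ± 9.55 normalized counts in the distal, 163 ± 22.7 in the middle and 181 ± 23.6 in the proximal fin and was not called. Its name places it opposite slc7a6, and that layout was not checked against a gene annotation. Since the strand handling of the counts is not stated, reads of such a pair may not be told apart. Of the glutamate carriers slc1a2a, slc1a2b, slc1a3b, slc1a6 and slc1a8b and the serotonin carrier copy slc6a4b, none was called; the highest mean among them was 24.1 normalized counts, for slc1a2a in distal fin.

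**Figure D3:**
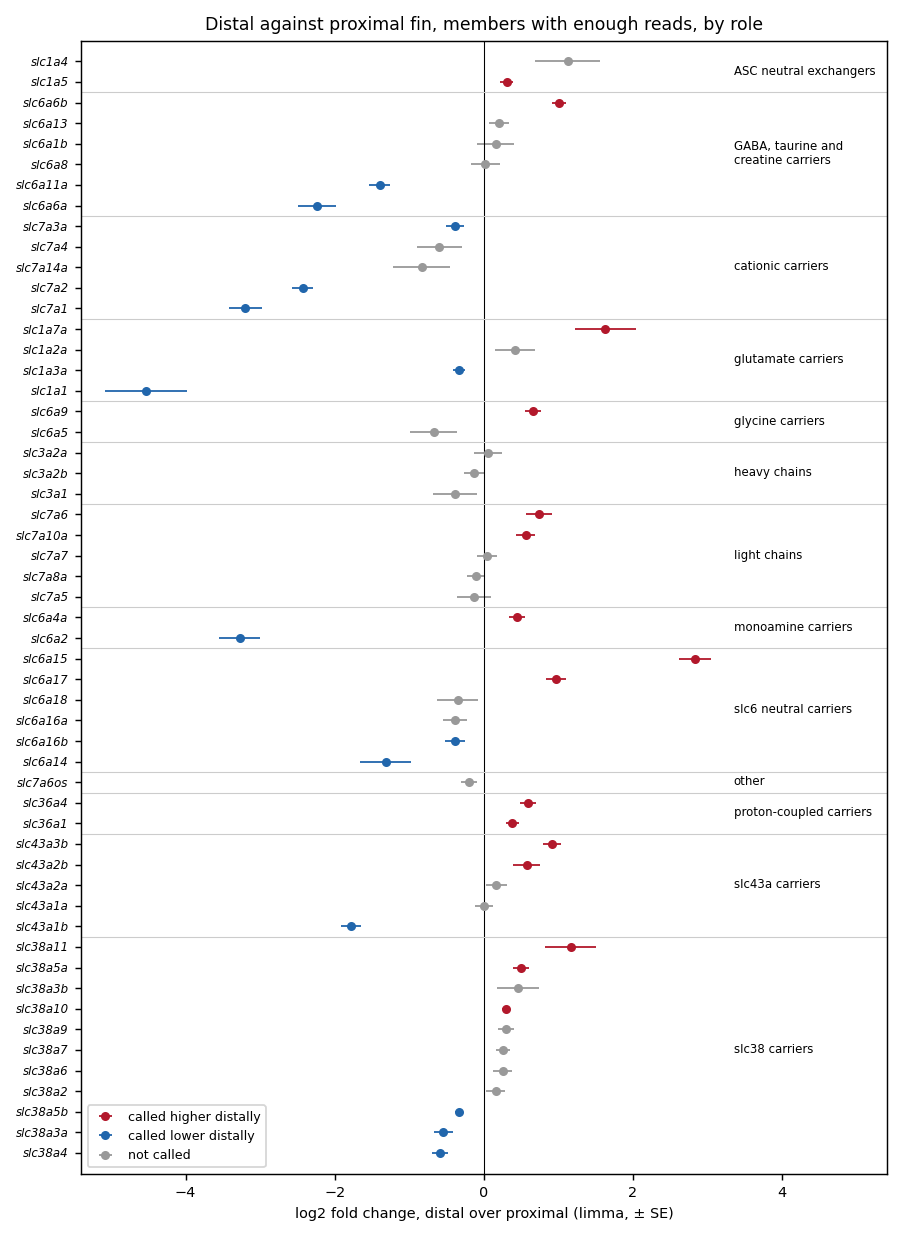
Log2 fold change of distal over proximal fin for the members with a limma estimate, grouped by role, with the standard error. Red marks genes called higher and blue genes called lower in the authors' deposited table, grey those not called. The 5 plotted genes grouped as cationic carriers by family number lie below 0, of which 3 were called. Both slc36a genes, labelled as proton-coupled carriers, lie above it.

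The middle position shows at which step a gene differed. By the authors' deposited tables, 4 genes were lower at both steps (slc43a1b, slc6a2, slc7a1 and slc7a2), 1 was higher at both (slc6a6b), 1 was higher and then lower (slc7a7), and 3 were higher in middle against proximal fin without a call in distal against middle fin (slc43a2b, slc6a17 and slc6a9). A further 8 were higher and 9 lower in distal against middle fin without a call in middle against proximal fin, and 40 were called at neither step. How many of all genes had each of these patterns was not counted, so the counts have no share beside them. The authors' deposited table of monotonic genes holds 1144 genes, beside 23926 in the whole series. It holds 5 of the 67, which are slc43a1b, slc6a2, slc6a6b, slc7a1 and slc7a2.

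A call at one step and none at the other does not show that the steps differ, so the difference of the steps was tested in limma (distal minus middle less middle minus proximal). It passed for 13 of 54 genes at an adjusted p under 0.05, beside 11.5% of 18838 genes tested (5.96% positive and 5.52% negative), with 23 of the 54 at an unadjusted p under 0.05. In limma the difference was positive for slc6a15 (1.53 ± 0.38, adjusted p = 0.0133) and slc43a3b (0.73 ± 0.21, adjusted p = 0.0342), log2 ± SE. It was negative for 11: slc1a1 (−3.21 ± 0.79), slc7a14a (−2.08 ± 0.54), slc6a11a (−1.79 ± 0.23), slc7a1 (−1.34 ± 0.35), slc6a6a (−1.25 ± 0.36), slc7a7 (−0.81 ± 0.21), slc7a2 (−0.72 ± 0.22), slc38a4 (−0.66 ± 0.19), slc6a9 (−0.57 ± 0.18), slc1a3a (−0.53 ± 0.14) and slc38a5b (−0.32 ± 0.09). The slc1a1 value rests on 1 distal read, so the size of its difference and its standard error are uncertain. For slc6a11a the fall lay between middle and distal fin, where the log2 fold change was −1.59 ± 0.14 (SE) against 0.20 ± 0.13 for middle against proximal fin. slc6a2 had the opposite layout, −1.02 ± 0.32 against −2.26 ± 0.21, but its difference of 1.24 ± 0.46 had an adjusted p of 0.0959 in limma. The count depended on the middle libraries, which enter both steps: without middle library 1 only 4 genes passed, and without middle library 2 or 3 only 7. Among single genes, the call was lost in 12 of the 15 fits that left out a library for slc6a9, in 11 for slc7a2, in 8 each for slc43a3b and slc38a5b and in 7 for slc6a6a, in 3 for slc38a4 and in 2 each for slc1a3a, slc7a1 and slc7a7. It was kept in all 15 for slc6a15, slc7a14a and slc6a11a, and for slc1a1, whose distal level rests on 1 read.

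**Figure D4:**
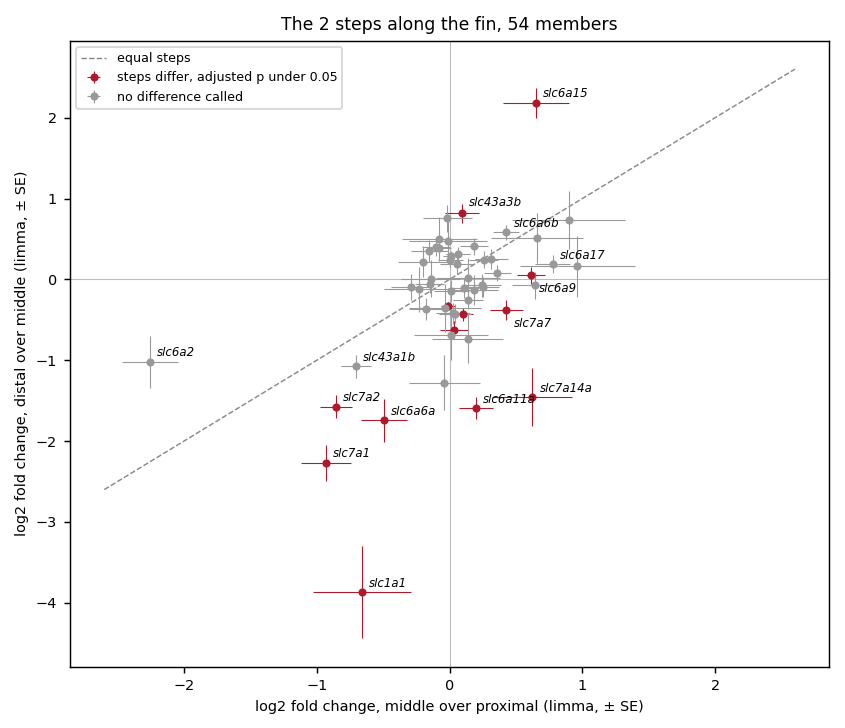
Log2 fold change of distal over middle fin against that of middle over proximal fin, with standard errors, for the 54 genes fitted by limma. Red points are the 13 genes whose steps differed at an adjusted p under 0.05 in limma. slc6a15 lies far above the line of equal steps and slc1a1, slc7a1, slc6a11a and slc6a6a lie below it. The place of slc1a1 rests on 1 distal read.

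Zebrafish carry duplicated copies of many genes, and 7 pairs of a and b copies here could be compared within each library. The log2 ratio of copy a to copy b does not depend on the scaling of a library, though its level reflects gene length and only its change between positions is read. Exact two-sided permutation tests of 5 against 5 libraries were run for 21 comparisons, where the smallest p possible is 0.00794, and were chosen after the data were seen. For slc6a6 the log2 ratio was −9.38 ± 0.49 in distal, −7.02 ± 0.26 in middle and −6.10 ± 0.39 in proximal fin (SD, n = 5 each), so distal and proximal differed by −3.27 and distal and middle by −2.35 (adjusted p = 0.0278 for both, exact permutation test). No distal library overlapped another position in this ratio.

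For slc43a1 the ratio was 4.04 ± 0.28, 3.09 ± 0.33 and 2.28 ± 0.35 in distal, middle and proximal fin, with differences of 1.77 for distal against proximal, 0.96 for distal against middle and 0.81 for middle against proximal fin (adjusted p = 0.0278, 0.0278 and 0.0476, exact permutation test). For slc38a5 it was −0.73 ± 0.22, −1.30 ± 0.18 and −1.57 ± 0.12, with differences of 0.84 for distal against proximal and 0.57 for distal against middle fin (adjusted p = 0.0278 for both, exact permutation test). The slc38a3 ratio did not pass, with differences of −0.995 for distal against proximal and −0.83 for distal against middle fin. Both had an adjusted p of 0.05 (exact permutation test), which is not under the threshold. The slc6a6 ratio in middle against proximal fin, with a difference of −0.92, had the same adjusted p in that test and did not pass. The ratios of slc3a2, slc43a2 and slc6a16 did not pass in any comparison, with differences from −0.40 to 0.32 on the log2 scale.

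**Figure D5:**
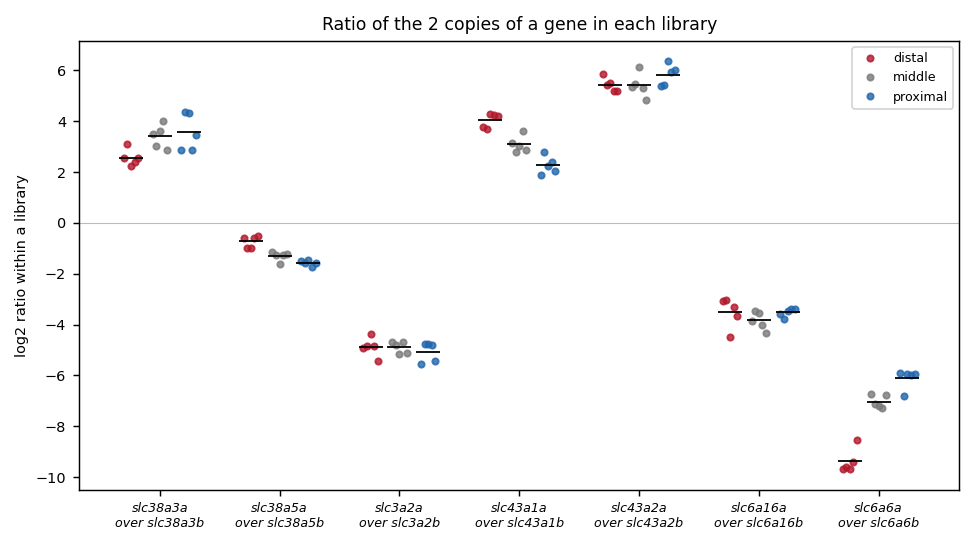
Log2 of copy a over copy b within each library for the 7 pairs of duplicated genes in the distal, middle and proximal fin, with a bar at the mean of 5 libraries. The slc6a6 ratio is lowest and the slc43a1 and slc38a5 ratios highest distally, while slc3a2 overlaps at all positions.

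Of the 10 rows outside the set that only the reference list names, slc6a7, a proline carrier (ENSDARG00000030006), averaged 5138 ± 399 normalized counts in the distal, 3445 ± 164 in the middle and 2362 ± 259 in the proximal fin and was called higher in distal against proximal fin, in middle against proximal fin and in distal against middle fin (adjusted p = 1.32e-23, 1.6e-05 and 7.29e-07 in the authors' deposited tables). Lower in distal against proximal fin were slc7a8b (3.05-fold lower), slc7a11, the cystine carrier (2.36-fold lower), a row named SLC7A1 (2.40-fold lower) and a row named SLC6A13 (1.62-fold lower), with adjusted p of 0.000193, 0.00819, 1.33e-12 and 5.29e-08 by the authors' deposited table. The row named SLC7A1 averaged 179 ± 36.2 normalized counts in the distal, 399 ± 93.9 in the middle and 429.9 ± 67.1 in the proximal fin. A row named SLC7A3 was called lower in distal against middle fin alone, with 504 ± 56.5 normalized counts in the distal, 642 ± 69.0 in the middle and 578 ± 41.2 in the proximal fin (adjusted p = 0.00962 in the authors' deposited table). The other 4 rows were called in no table that lists them; 1 of the rows named SLC38A8 is in neither distal table.

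Amino acid shortage induces a set of genes through the factor atf4, among them enzymes of serine, proline and asparagine synthesis. Of 35 measured genes of that response, 4 were higher and 14 lower in distal against proximal fin, which is 51.4% called beside 36.0% of all genes, with a median log2 fold change of −0.28 beside −0.04 for all genes. The higher ones were psat1 and psph of serine synthesis, the factor atf5a and pycr1a of proline synthesis. The lower ones included asns, the asparagine synthetase (913 ± 119 normalized counts distally against 1466 ± 269 proximally; adjusted p = 0.000195 in the authors' deposited table) and cbsa of the transsulfuration pathway (22.1 ± 6.28 distally against 214 ± 30.2 proximally; adjusted p = 1.13e-57 in the authors' deposited table). Other copies of these genes differed from those named. pycr1b was lower (246 ± 49.6 distally against 434 ± 45.6 proximally), as was atf5b (1490 ± 119 against 1953 ± 249). Their adjusted p was 5.05e-09 and 0.00197 in the authors' deposited table. cbsb was not called (2948 ± 419 distally against 2982 ± 325 proximally). The 17 response genes not called there also held ddit3, sesn2, cebpb, atf4a and atf4b. With them were chac1 (21161 ± 3389 distally against 20232 ± 1857 proximally) and trib3 (964 ± 120 against 967 ± 88.0). In middle against proximal fin 2 of the 35 were higher and 3 lower (14.3% called beside 7.31% of all genes). In distal against middle fin 3 were higher and 12 lower (42.9% beside 26.2%). Those shares of all genes include genes with few reads. Among the 18838 genes with enough reads, limma called 51.5% in distal against proximal, 13.8% in middle against proximal and 38.7% in distal against middle fin. Whether the response genes were called more often than genes of like level was not tested.

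Of 37 genes of the mTORC1 pathway, which include its amino acid sensors, its regulators and some of its targets, 7 were higher and 7 lower in distal against proximal fin. That is 37.8% called, near the 36.0% of all genes, with a median of 0.09. The higher ones were the target kinase copy rps6kb1a, the regulators flcn, fnip1, wdr24, lamtor2 and lamtor5, and the target factor tfe3b. The lower ones were the other kinase copy rps6kb1b, the target eif4ebp1, which is also in the list of the amino acid response, sesn3, a relative of a leucine sensor, tsc1a and tsc1b, which restrain the pathway, and mios and rheb, which activate it. The kinase copies were called in opposite directions: rps6kb1a averaged 979.5 ± 159 normalized counts distally against 617 ± 52.6 proximally, and rps6kb1b 666 ± 53.6 distally against 840.3 ± 93.5 proximally (adjusted p = 1.13e-05 and 0.0130 by the authors' deposited table). rheb was low throughout, at 5.34 ± 2.07 distally against 13.2 ± 6.21 proximally (adjusted p = 0.0262 in the authors' deposited table). Of the 37 genes, 0 were higher and 1 lower in middle against proximal fin (2.70% called beside 7.31% of all genes). In distal against middle fin 1 was higher and 5 lower (16.2% beside 26.2%). Of 26 other amino acid and peptide carriers, 6 were higher and 9 lower in distal against proximal fin (57.7% called beside 36.0%). Among them were the lysosomal cystine exporter ctns (higher) and the peptide carrier slc15a2 and the aromatic amino acid carrier slc16a10 (both lower). Of these 26, 1 was higher and 1 lower in middle against proximal fin (7.69%), and 2 were higher and 6 lower in distal against middle fin (30.8%).

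Called markers of other cell types were counted in the same way, beside 36.0% of all genes called in distal against proximal fin. No list was tested against that share. In distal against proximal fin all 5 mucous cell markers were lower, their summed level ranging 223 to 835 normalized counts in distal, 7921 to 14206 in middle and 28116 to 32765 in proximal libraries. All 6 melanophore markers were higher (4287 to 5959.9 in distal, 1819.7 to 2969 in middle and 1370.3 to 1891 in proximal libraries), as were 4 of 5 xanthophore markers (3999 to 5145 in distal, 2672 to 3092 in middle and 1872 to 2286 in proximal libraries). Of 6 ionocyte markers 4 were lower and 1 higher, with the sum (10073 to 14568 in distal, 4983 to 6676 in middle and 3369 to 4303 in proximal libraries) set by ca2, the higher one. Osteoblast markers were 3 higher and 1 lower of 6, epidermal markers 3 higher and 1 lower of 6, endothelial markers 3 higher and 1 lower of 5, and leukocyte markers 1 higher and 4 lower of 7. Muscle markers were 0 higher and 1 lower of 4, iridophore markers 0 higher and 2 lower of 4, and erythrocyte markers 2 higher of 3. No list had a member listed at 0 in a position. The part of these cell types in the changes of the carriers was not tested.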

How the data were processed

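Total RNA was depleted of ribosomal RNA and sequenced as 50 bp read pairs, per the labels' protocols. The genome GRCz10 and the tools HTSeq, DESeq and TopHat2 2.0.13 are named in the submitters' processing notes; the gene annotation, strand handling and low-count rules were not found in the labels or headers. The signal columns of the authors' deposited tables are headed by the position alone, and by the position and rpm in the monotonic table. That each holds 1 mean per position of counts divided by size factors was read from the values. The fold (ratio of the means), its log2 and the DESeq p-value, raw and adjusted by Benjamini-Hochberg over the table, are the authors' deposited values. The score of the authors' monotonic table was not used for any call.

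Each mean is printed to 15 digits and is a sum of 5 whole counts over 5 size factors, so the counts were solved by lattice reduction. No single solution was found for 35 genes, none of them an amino acid carrier gene. The solved counts were checked on 567 distal, 571 middle and 571 proximal means of the monotonic table that had not been used, all of which they returned within rounding, and on simulated counts. The authors' adjusted p was the main test; limma 3.58.1 (voom, R 4.3.3) on the recovered counts gave errors and the difference of the steps, using genes with 10 reads or more in 5 or more libraries (18838 genes), Benjamini-Hochberg adjusted over all of them. Intervals on reads are exact, at 95%, and cover counting error only. The ratio of copies used a pseudocount of 0.5.

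The carrier genes, their roles, the pathway and marker lists and the alternatives were chosen with earlier results of these data known. The genes named are, per comparison, the called ones with a mean of at least 20, up to 8 in each direction, all heavy and light chains, the 3 with the highest means and the highest of each role; any other called gene is marked as chosen after its values were seen. Replicates are separate pools, per the series' design text, which does not say whether regions of the same fish entered several positions.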

Additional observations from a re-analysis of the deposited data

Results flagged for a closer look

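In 126 groups of 5 libraries, those of 42 named genes at 3 positions, 5 held a library whose gap to the next was above the critical value of 0.71 times the range of the group, and chance alone would flag about 1 group in 20. The distal level of slc1a1 was 1.21 normalized counts in distal library 1 and 0 in the other 4, which is 1 read. The middle level of slc1a1 was 16.4 in its highest library and 6.80 to 8.77 in the other 4. The middle level of slc3a2b was 2000.3 in its lowest library and 3069 to 3444 in the others. The proximal level of slc6a6a was 32.1 in its lowest library and 52.8 to 60.0 in the others. The middle level of slc7a3a was 6577 in its highest library and 4780.5 to 5082 in the others. None of these libraries changed the direction of a named call when left out, but calls could be gained. Without its lowest middle library, slc3a2b was called lower in distal against middle fin (limma adjusted p = 0.0375). In 1 fit that left out a library, slc6a6a was called lower in middle against proximal fin (limma adjusted p = 0.00527). The slc6a6 copy ratio passed at that step in 1 case (adjusted p = 0.0417, exact permutation test).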

How the results depend on the processing

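No direction reversed under any alternative. At the authors' adjusted p under 0.01, 10 genes were higher in distal against proximal fin, where 16 were at 0.05. Leaving out each library in turn, in limma, gave 16 to 20 higher and 14 to 16 lower genes in distal against proximal fin, 4 to 7 higher and 4 to 5 lower in middle against proximal fin, and 9 to 12 higher and 14 to 18 lower in distal against middle fin. The genes whose steps differed numbered 4 to 14, with 4 without middle library 1 and 7 each without middle library 2 and middle library 3. The other settings left each count within 1.5 times of its value: a filter on means, limma in place of DESeq, no filter on low counts, only the libraries of the pair, limma-trend, and scaling by library totals, which shifted the median of all genes by −0.08, −0.03 and −0.05 on the log2 scale. Leaving out a library (4 libraries against 5 allow fewer arrangements) took the adjusted p of the distal calls of the slc6a6, slc38a5 and slc43a1 copy ratios to 0.0556 in 7 cases each, and that of the middle against proximal slc43a1 ratio to 0.0667 to 0.0833 in 8. No paired analysis was possible because the recovered libraries carry no replicate numbers of the labels. TMM scaling was not run. Depth limits most the 13 genes under the read minimum.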
